A study of Mus musculus with 6 samples.

Results

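Chemokines are small secreted or membrane-bound proteins that guide migrating cells, and their receptors are G protein-coupled receptors on the surface of those cells. The chemokine and chemokine receptor genes were taken from the expression table of mouse RPE/choroid by their symbols. They are all rows that begin with Ccl, Cxcl, Ccr, Cxcr, Xcl, Xcr or Ackr and a digit, or with Cx3c. Pseudogenes, whose symbols end in -ps with or without a number, were left out. Of the 33924 rows, 58 carried such a symbol, and the 45 that reached a mean normalized count of 10 are described here. They comprised 30 ligands, 14 signaling receptors and 1 atypical receptor. A further 10 genes had a mean above 0 and below 10, and 3 genes (Ccl20, Ccl26 and Cxcl3) were listed at 0. All of these genes but Ccl21c could be placed on GRCm38.

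The table came from RPE/choroid of C57BL/6J mice, with 3 young and 3 aged samples. The titles give 1-2 and 20-24 months, and the age field of the aged samples gives 22-24 months, and the study's methods put the young mice slightly older than their titles do. The labels call the mice male, whereas the study's methods describe both sexes, and 2 eyes were pooled per sample. Neural retina had been peeled off and the pigmented layer scraped from the sclera, rRNA was depleted and poly(A) RNA was sequenced.

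The value used here is the authors' mean normalized count over all 6 libraries. It pools both ages, so it has no SD or n. No comparison of young and aged mice was made, because outside the authors' own fold changes and p-values the table holds no value that carries an age. A gene expressed at 1 age alone would show a mean below its level at that age. In whole tissue, fewer cells of a type and less RNA per cell cannot be told apart.

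Ligands of the CC class have adjacent cysteines near the amino terminus, those of the CXC class have a residue between them, Cx3cl1 has a longer spacer and a membrane anchor, and Xcl1 lacks a pair of the cysteines. Signaling receptors act through Gi proteins, and arrestins end the signal. Atypical receptors take up ligand without Gi signaling. In the back of the eye, Cx3cr1 and Ccr2 are the receptors best known from microglia, choroidal macrophages and infiltrating monocytes.

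Some of these genes are near-identical copies, and the sequences below show how little separates the copies of Ccl21, a ligand of Ccr7 that guides dendritic cells and T cells into lymph nodes. Both lines give coding positions 74 to 204 of the GENCODE transcripts, counted from 1 at the A of the start codon, and span an intron in the genome. Ccl21a lies on the minus strand at chr4:42773533-42773757 and Ccl21b on the plus strand at chr4:42255928-42256152. The capitals mark the only bases that differ over 399 coding bases, T84A and C194T, with the base of Ccl21a first.
Ccl21a: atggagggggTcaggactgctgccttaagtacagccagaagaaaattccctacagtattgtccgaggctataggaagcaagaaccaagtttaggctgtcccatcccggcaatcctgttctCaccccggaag
Ccl21b: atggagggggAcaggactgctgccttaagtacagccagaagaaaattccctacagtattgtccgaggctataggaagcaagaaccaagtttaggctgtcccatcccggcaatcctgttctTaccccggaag

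The rows Gm10591 and Gm13304 have the same coding bases as Ccl21b. The mean normalized counts of Ccl21b, Ccl21c, Gm13304 and Gm10591 were 62.3, 64.6, 63.1 and 62.6, a 1.04-fold range from lowest to highest. Ccl21a had 99.3 and Gm1987 102.1. The 6 rows added up to 454.1, of which 49.8% lay in Ccl21a, Ccl21b and Ccl21c. Every word of 50 bases of Ccl21b was also found in another gene, so that 0% were its own, compared with 28.4% of the words of Ccl21a, so the levels of the single copies are uncertain.

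Ccl19 and the Ccl27 genes have copies too. Ccl27b shared nearly all its words with Gm13306 and had 1.86% of its own, Ccl19 had 48.0% and Ccl27a had 55.0%. The pseudogenes Ccl19-ps3 and Ccl19-ps1, which the symbol rule leaves out, had mean normalized counts of 206.4 and 100.6, beside 191.8 for Ccl19. The levels of Ccl19, Ccl27a and Ccl27b are therefore also uncertain.

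The 45 genes held 0.0620% of all normalized counts in the table, and Cxcl12 alone held 44.1% of the counts of the group. In 6 of them the mean stood at 1000 or more, namely Cxcl12, Cxcr7, Cxcl16, Cx3cl1, Cx3cr1 and Ccr2. A further 18 genes lay between 100 and 1000, and 21 between 10 and 100. The median was 108.9, compared with 667.9 for all 18479 genes at or above 10. To compare genes with each other, each mean was divided by the length of the longest annotated transcript in kilobases. On that scale 15 of the 44 genes with a length exceeded the median gene (213.0), and the median of the group was 94.8.

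**Figure D1:**
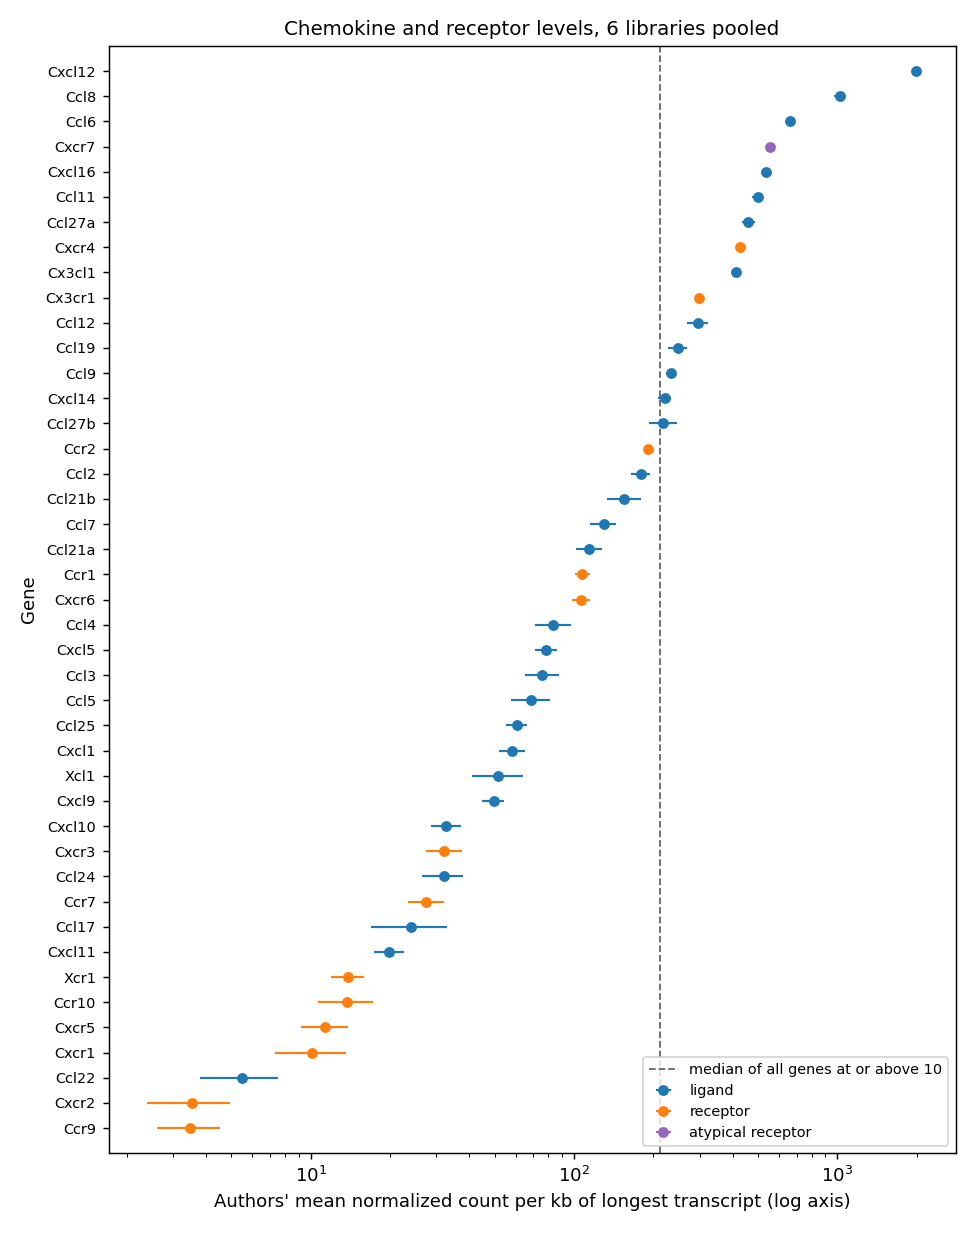
Authors' mean normalized count per kilobase of the longest transcript (log axis) for 43 of the 44 genes with a length, with bars for the exact Poisson 95% interval, which covers counting error only, and a dashed line at the median gene. Cxcl12 stood highest at 1986 and Ccr9 lowest at 3.48, and 8 of the 13 signaling receptors shown lay at or below 32.1.

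The intervals in that plot are exact Poisson intervals on read pairs and cover counting error only. Of the 43 pairs of neighbors in the order per kilobase, 36 had overlapping intervals, so neighbors in most of the order could not be told apart on counting error alone. The steps that were resolved included those from Cxcl12 to Ccl8, from Ccl8 to Ccl6, and from Ccl6 to Cxcr7. The spread between mice is not contained in these intervals.

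Among the ligands, Cxcl12 stood first. Cxcl12, which holds leukocytes and progenitor cells in place through Cxcr4, lies at chr6:117168535-117181367 and had a mean normalized count of 11177 (counting interval 11058 to 11297). Its level of 1986 per kilobase lay above 90.4% of all genes at or above 10. Ccl8, a monocyte chemoattractant at chr11:82115185-82116799, followed with a count of 522.6 and a level of 1023 per kilobase. Ccl8 has a short transcript, and by the count alone it ranked 11 within the group.

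Ccl6, a myeloid chemokine of rodents at chr11:83587882-83593087, had a count of 950.7 and a level of 660.2 per kilobase. Cxcl16 at chr11:70453983-70459984 and Cx3cl1 at chr8:94772009-94782427 are the chemokines made as membrane-anchored proteins, which proteases can shed. Cxcl16 had a count of 1452 and a level of 538.1 per kilobase, and Cx3cl1 had a count of 1367 and a level of 412.3. The levels per kilobase of the secreted eosinophil attractant Ccl11 (499.1, count 540.0) and of Ccl27a, a ligand of Ccr10 (459.7, count 457.9), lay between them with the longest transcript. With the median transcript both membrane-anchored chemokines stood above Ccl27a (829.5) and Ccl11 (499.1), at 873.9 for Cxcl16 and 2933 for Cx3cl1. With the shortest transcript, Ccl27a (1335) stood above Cxcl16 (1146) and below Cx3cl1 (3626). Ccl11 lies at chr11:82057823-82062955 and Ccl27a at chr4:41769467-41774247.

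Ccl12, a ligand of Ccr2 at chr11:82101845-82103400, had a count of 158.8 and a level of 295.7 per kilobase. Ccl19, a ligand of Ccr7 at chr4:42754525-42756577, had a level of 248.1. The 12 highest levels were thus those of 9 ligands and of the receptors Cxcr7, Cxcr4 and Cx3cr1. Ccl12 and Ccl19 left the 12 highest with the shortest or median transcript and without length correction, and Cx3cr1 left them with the shortest transcript. The remaining 20 ligands with a length lay between 5.49 per kilobase (Ccl22) and 233.7 (Ccl9).

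The ligands just below these included Ccl9, a relative of Ccl6 that binds Ccr1, Cxcl14 (221.3 per kilobase), Ccl27b (217.9) and the monocyte attractant Ccl2 (179.3). Ccl9 and Cxcl14 had counts of 702.5 and 404.2. Ccl7, a further ligand of Ccr2, had 129.5 per kilobase.

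Lower still with the longest transcript were several further ligands. The neutrophil attractants Cxcl5 and Cxcl1, ligands of Cxcr2, had 78.4 and 58.2 per kilobase. The inflammatory chemokines Ccl3, Ccl4 and Ccl5 had 75.5, 83.2 and 68.7, and their counting intervals overlapped. The interferon-induced ligands of Cxcr3 had 49.5 for Cxcl9, 32.7 for Cxcl10 and 19.8 for Cxcl11, below Ccl3, Ccl4 and Ccl5 on this scale. That order turned without length correction, where Cxcl9, Cxcl10 and Cxcl11 had counts of 143.1, 72.9 and 75.2 against 57.9, 54.9 and 45.9 for Ccl3, Ccl4 and Ccl5. It also turned with the shortest transcript for Cxcl9 and Cxcl10 (386.8 and 211.8 per kilobase). With the median transcript it turned for Cxcl9 alone, at 87.9 against 75.5, 83.2 and 76.5 for Ccl3, Ccl4 and Ccl5. Ccl25, the ligand of Ccr9, had 60.8 with the longest transcript, but 161.2 with the median and 428.3 with the shortest. With the longest transcript, the lymphocyte attractant Xcl1 had 51.6. The eosinophil attractant Ccl24 had 32.0, far below the 499.1 of Ccl11.

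At the lower end of the ligands were Ccl17 and Ccl22, which attract T cells through Ccr4. Ccl17 had a count of 12.4 (counting interval 8.68 to 17.0) and Ccl22 a count of 12.2 (8.40 to 16.6), just inside the limit of 10. Both intervals reach below that limit.

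Among the receptors, Cxcr7 (current symbol Ackr3), the atypical receptor that clears Cxcl12, had the highest level. It lies at chr1:90203980-90216751 and had a count of 1708 and a level of 557.2 per kilobase. Cxcr4, the signaling receptor of Cxcl12 at chr1:128588199-128592293, had a count of 772.8 and a level of 428.1. Cx3cr1, the fractalkine receptor of microglia and resident macrophages at chr9:119901616-120069879, had a count of 1341 and a level of 298.6. The intervals of Cxcr4 and Cx3cr1 did not overlap on the scale per kilobase.

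Ccr2, the receptor of inflammatory monocytes, followed with a count of 1093 and a level of 190.8 per kilobase. The myeloid receptor Ccr1 and the lymphocyte receptor Cxcr6 were nearly level, at 107.7 and 106.4. With the longest transcript, every other signaling receptor lay at or below 32.1 per kilobase, which did not hold for all of them with the shortest or median transcript. Cxcr5 had 90.4 with the shortest. With the longest transcript, these receptors included Cxcr3 and Ccr7 of T cells and dendritic cells (32.1 and 27.4), the dendritic cell receptor Xcr1 (13.9), Ccr10 (13.8), the B cell receptor Cxcr5 (11.4), the neutrophil receptors Cxcr1 and Cxcr2 (10.1 and 3.55), and Ccr9 of gut-homing T cells (3.48). Cxcr2, with a count of 10.8 (counting interval 7.30 to 15.1), was the gene nearest above the limit.

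Added up per kilobase, ligands held 81.5% of the level of the group, signaling receptors 12.8% and Cxcr7 5.67%. The median ligand had 129.5 per kilobase and the median signaling receptor 21.7. Without length correction the gap was smaller, with median counts of 126.0 and 58.6. With 13 of the 15 reported receptors each set beside ligands it is known to bind, the summed ligand level exceeded the receptor level in 12 of 13 cases. The other 2 receptors were not compared. This list of ligands was written after the levels had been seen, and it includes ligands with a mean below 10. Up to 5 ligands were summed against 1 receptor, and some ligands entered more than 1 sum. With the higher median of the ligands, the count of cases is therefore no test. The sums for Ccr7 and Ccr10 rest on the uncertain levels of Ccl19, the Ccl21 copies and the Ccl27 genes.

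**Figure D2:**
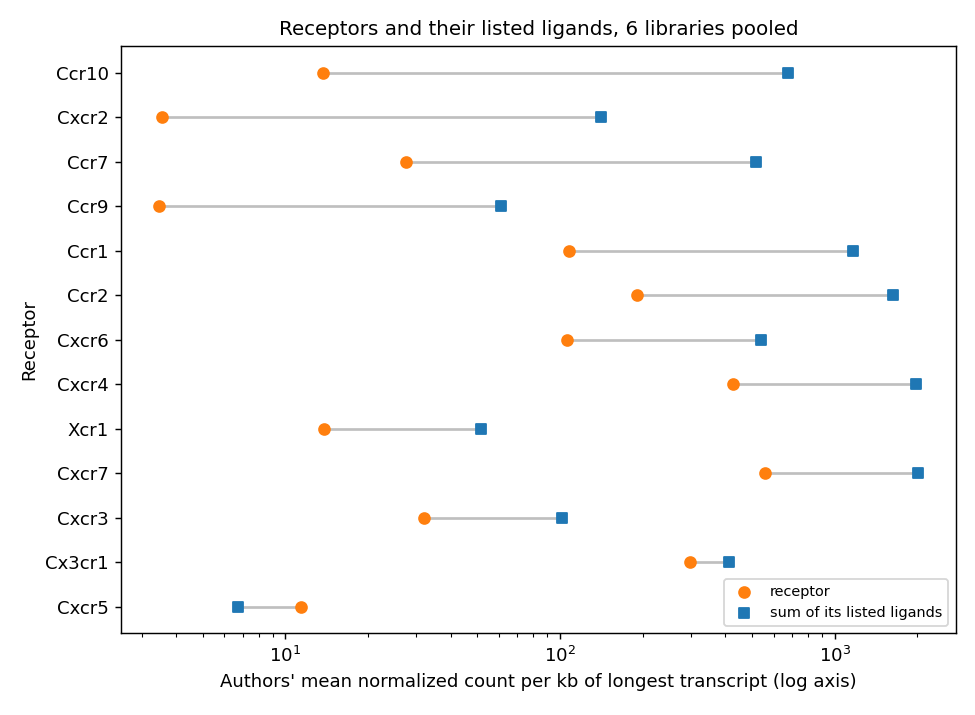
Level per kilobase of the longest transcript (log axis) of 13 receptors (circles) and the sum over the listed ligands of each (squares). The squares lie to the right of the circles for all receptors shown but Cxcr5, where they stand at 6.74 and 11.4.

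With the longest transcript, the closest pair above parity was Cx3cl1 and Cx3cr1, with 1.38 times as much ligand as receptor. That ratio became 8.21 with the median transcript and 8.53 with the shortest. The closest receptor above parity was then Xcr1 with the median transcript (3.72) and Cxcr7 with the shortest (1.42). Cxcl12 had 4.64 times the level of Cxcr4. The ligands of Ccr2 (Ccl2, Ccl7, Ccl8 and Ccl12) together had 8.53 times its level, or 3.57 times with the shortest transcript. Mouse Ccl8 is also known as a ligand of Ccr8, and without it the ratio was 3.17. The exception was Cxcr5, whose ligand Cxcl13 stood at 0.592 times the receptor level with the longest transcript, where the counting intervals overlapped, and at 0.0745 times with the shortest. These ratios compare RNA in whole tissue, in which ligand and receptor may come from different cells.

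Many chemokine genes lie side by side, and 35 of the 57 genes with a position fell into 7 clusters of 3 or more with gaps of at most 500 kb. In the cluster at chr11:82035571-82305690, the monocyte and eosinophil attractants Ccl2, Ccl7, Ccl11, Ccl12 and Ccl8 lay between 129.5 (Ccl7) and 1023 per kilobase (Ccl8), whereas their neighbor Ccl1 had a mean normalized count of 3.07. In the next cluster on the same chromosome, at chr11:83525778-83664683, Ccl6 had 9.60 times the level of Ccl5.

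Among the reported genes, the widest range was in the cluster at chr8:94745590-94812036, where Cx3cl1 lies between Ccl22 and Ccl17 and had 75.2 times the level of Ccl22. Counting only genes under the symbol rule, the neutrophil chemokine cluster at chr5:90759360-90905938 had the fewest reported genes for its size, with 2 of 5. Cxcl3 was listed at 0 there. In comparison, 77.6% of all genes under the rule and 54.5% of all rows were at or above 10. The count for this cluster was not tested. Chemokines outside the symbol rule, such as Pf4 (mean normalized count 493.8) and Ppbp (35.5), were not placed in clusters. The counts and ranges of the clusters leave them out. The receptor cluster on chromosome 9 held 8 genes, of which 6 were reported. Ccr2 had 54.9 times the level of Ccr9 there.

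**Figure D3:**
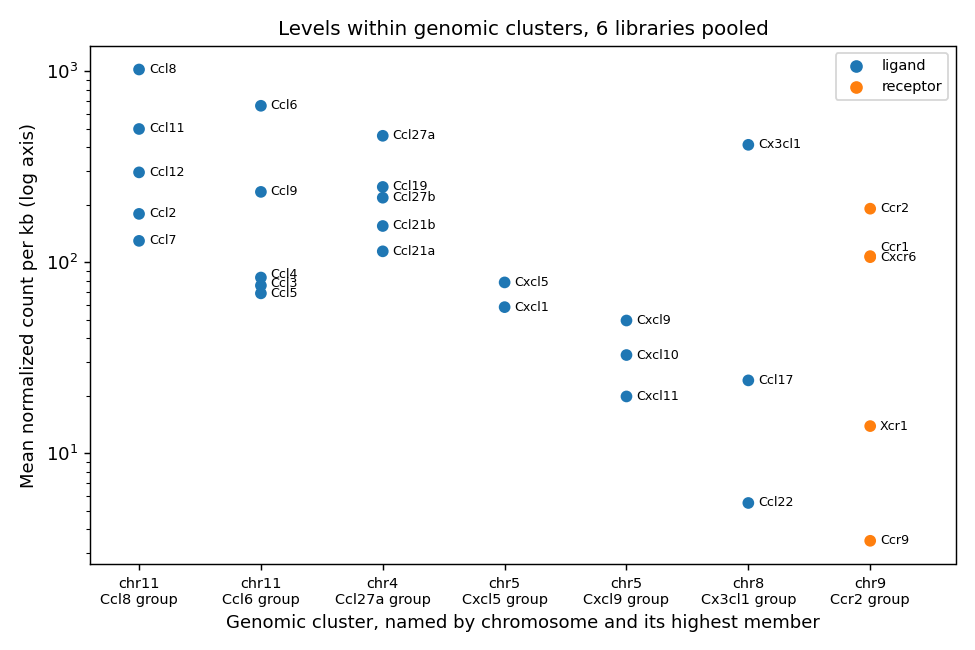
Level per kilobase (log axis) of reported genes in each of the 7 genomic clusters, with ligands in blue and receptors in orange. The spread of reported genes within a cluster ran from 1.35-fold (Cxcl5 and Cxcl1) to 75.2-fold (Cx3cl1 and Ccl22).

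Some genes share exon bases with a gene on the opposite strand. The libraries came from a stranded kit, but the strand setting of the counting is not given in the sources used here, so such genes are uncertain. Cxcl11 shared 41.7% of its exon bases with Gm2673, whose mean normalized count was 0.335. Cxcl16 shared 18.3% with Zmynd15 (130.8), and Cxcl10 shared 5.91% with Art3, which had 3557 against 72.9 for Cxcl10. Ccl25 shared 2.74% with Elavl1 (1801), and 22 exon bases of Ccr9 lie in Slc6a20a (10701), against 18.1 for Ccr9. Ccr9 also shared 18.8% with AC165425.1, and 2.62% with Gm17200 (8.35) on the same strand, which no strand setting separates. Xcl1 shared 18.7% with Gm20743. Cxcr5 shared 3.30% with Bcl9l, which had 33.8 against 32.4 for Cxcr5. Ccl27a shared 0.337% with Il11ra1 (7874).

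Genes that act with the receptors were detected too. All 13 listed genes of signal transduction were at or above 10, as were 54.5% of all rows. Gnai2 and Gnai3, the Gi subunits through which these receptors act, were the highest with 4294 and 2405 per kilobase. The lowest were Rgs1 and Pik3cg with 30.4 and 42.8. Of 5 proteases that cleave chemokines, all were at or above 10. Mmp2 had 1011 per kilobase, and Adam10, which sheds Cx3cl1 and Cxcl16, had 714.3. Among 6 relatives outside the symbol rule, Rarres2 (chemerin) had 1620 and the platelet chemokine Pf4 had 839.8. Older symbols hide further atypical receptors from the rule, which are Ccrl1 (Ackr4, 103.1 per kilobase), Darc (Ackr1, 50.5) and Ccbp2 (Ackr2, 26.6).

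The tissue carried its own markers. All 6 RPE markers were at or above 10, from 81.8 (Best1) to 397586 (Ttr) as mean normalized counts. The melanocyte list summed to 555836, but its pigment genes do not separate melanocytes from the pigmented RPE. All sums in this paragraph are of mean normalized counts without length correction. Markers of other tissues were detected as well. The 6 rod markers summed to 258855, the 6 skeletal muscle markers to 232189, and 4 of the 6 red cell markers found in the table to 75190. Of the cells that bear chemokine receptors, macrophage markers summed to 25714 (5 of 6 found, lowest 1014), mast cell markers to 3367, neutrophil markers to 1175, T and NK cell markers to 530.0 and B and plasma cell markers to 504.8 (4 of 6 found). No listed marker found in the table stood at 0. In the T and NK cell list, the lowest was Cd3e (2.40), the median 85.6 and the highest Cd4 (201.7). In the neutrophil list, the lowest was Ly6g (2.14), the median 157.3 and the highest S100a9 (449.6). Endothelial markers summed to 22515 and fibroblast markers to 164981. The part of each cell type in the chemokine levels was not tested.

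For the 10 genes between 0 and 10, the digits of the mean allowed the whole counts of the 6 libraries to be recovered, each with exactly 1 solution. The age group of these libraries is unknown, and they are described only as libraries. From 10 to 30, where the search used a wider tolerance, no gene of the group had exactly 1 solution. The tolerance used below 10 was not tried there, and no counts are given at or above 10. Cxcl2, a neutrophil attractant just below the limit with a mean of 9.75, had a lowest count of 2, a median of 5 and a highest of 24. Ccr3, the eosinophil receptor that binds Ccl11, had a mean of 7.92 and counts from 6 to 14 with a median of 6. Cxcl13, the B cell attractant, had a mean of 7.75 and counts from 0 to 28 with a median of 3.

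**Figure D4:**
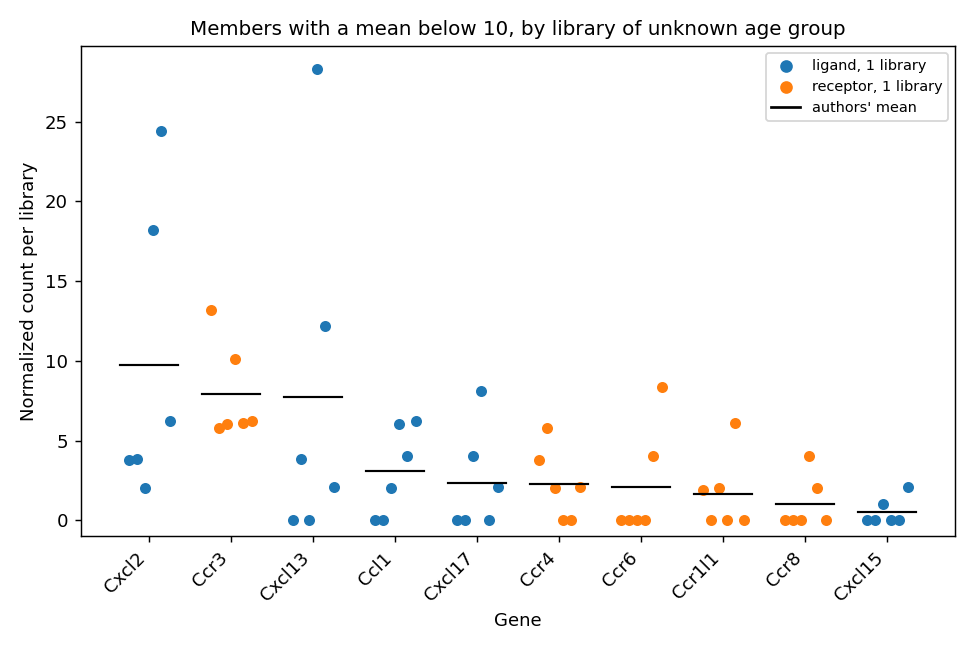
Normalized count in each of 6 libraries (points) and the authors' mean (black line) for the 10 genes with a mean between 0 and 10, with ligands in blue and receptors in orange. Cxcl13 and Cxcl2 had their highest libraries at 28.3 and 24.4, whereas Ccr3 stayed between 5.81 and 13.2.

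In 2 of these 3 genes, Cxcl2 and Cxcl13, the highest library had at least 5 times the normalized count of the lowest, or the lowest was at 0. The same held for 70.2% of all 1201 genes with a mean from 5 to below 10, so such a spread was common at this level. Ccr3 was read in all 6 libraries, and its highest library had 2.27 times the lowest. The other 7 genes were Ccl1, Cxcl17, Ccr4, Ccr6, Ccr1l1, Ccr8 and Cxcl15. Each of them was at 0 in at least 2 libraries, and no library had more than 8 counts of any. Ccr4, the receptor of Ccl17 and Ccl22, had 14 counts in all and Ccr8, a receptor of Ccl1, had 6.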

How the data were processed

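RPE/choroid poly(A) RNA of 3 young and 3 aged mice was sequenced. As the study's methods state, the authors used BBDuk for trimming, STAR for mapping against Ensembl GRCm38 transcripts and Sailfish for quantification, scaled to total counts and ran DESeq2. The submitters' processing notes also name STAR, DESeq2 and GRCm38. Of the deposited table only the mean normalized count was used, a signal that the authors averaged over all libraries. Its other columns hold the authors' comparison of the ages (fold change, standard error, Wald statistic, p-value and adjusted p-value) and were not used. The planned edgeR test could not be run, since the table has no column per library.

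The means sum to 40816668. As the authors had scaled to total counts, the depth of single libraries is unknown. Lengths came from the longest GENCODE M21 transcript. Poisson intervals at the 95% level assumed 2 counted reads per pair and cover counting error only. The 6 weights, read from the means of genes with 1 count in 1 library, gave whole counts: of 7038 genes above 0 and below 10, 99.9% had exactly 1 solution at a tolerance of 7e-10, and 70.3% of the counts above 0 were even. The size factors ranged from 0.959 to 1.06. The search was tested on simulated data.

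The genes and lists were chosen with earlier results of these data known. Named in full are the 12 highest levels per kilobase, the 3 genes nearest above and below 10, and the 2 highest genes of each role around the receptors. Genes named outside this rule, the genomic clusters, the 5-fold limit and the receptor-ligand list were chosen after the values were seen. A gene that matches the rule is counted in the totals but is not reported here by name, and its comparison with ligands was left out. Alternatives were other limits, transcript lengths, tolerances and sets of libraries. Python 3.11.15, numpy 2.4.6, pandas 2.3.3, scipy 1.17.1 and matplotlib 3.10.9 were used.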

Additional observations from a re-analysis of the deposited data

How the results depend on the processing

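No paired analysis was possible because samples have no values of their own in the deposited file. Likewise, the edgeR fit and its alternatives (DESeq2 size factors, no filter, leaving out replicates) were not run. With a limit of 100 in place of 10, 24 genes remained of 45, and limits of 1, 5, 20 and 50 gave 54, 48, 40 and 35. Keeping the numbered pseudogenes gave 47. Of the 12 highest levels per kilobase, 9 stayed among the 12 highest with the shortest transcript, 10 with the median transcript and 10 without length correction.

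The ligand share of the summed level (81.5%) was 75.5% with the shortest transcript, 83.2% with the median transcript, 77.0% without length correction and 87.8% without the highest gene of each class. For signaling receptors (12.8%) these values were 9.22%, 10.9%, 16.3% and 12.2%, and for Cxcr7 (5.67%) 15.2%, 5.85% and 6.74%. The number of receptors below their ligands was 12 of the 13 compared with the longest, shortest and median transcript. The median percentile of the group by mean normalized count was 23.3 among genes at or above 10 and 44.5 among all genes above 0. On single reads, 30 in place of 36 neighboring pairs overlapped. A tolerance 5 times wider left the counts of all 10 low genes with 1 solution. Between 10 and 30, at a wider tolerance than below 10, no gene of the group had exactly 1 solution. With even counts only, 2 did. Leaving out each library in turn, the genes with a 5-fold spread numbered 2 in every case. The single reads, even counts, pseudogenes, ratios and the ligands of Ccr2 without Ccl8 were chosen after seeing the data.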

Other observations

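The libraries of unknown age group were numbered by the weight of 1 count, which orders them by size factor and carries no label. In libraries 1 to 6, Cxcl2 had normalized counts of 3.76, 3.87, 2.02, 18.2, 24.4 and 6.26. Cxcl13 had 0, 3.87, 0, 28.3, 12.2 and 2.09. In both genes the 2 highest libraries were numbers 4 and 5. Ccr3 had 13.2, 5.81, 6.05, 10.1, 6.10 and 6.26, with its highest value in library 1. Ccr4 had 3.76, 5.81, 2.02, 0, 0 and 2.09 and was at 0 in libraries 4 and 5. The other genes with a mean below 10 were mixed. Ccr8 was read only in libraries 4 and 5 (4.05 and 2.03). Cxcl17 had 8.09 in library 4 but 0 in library 5. Ccr6 had 0 in library 4 and its highest value, 8.34, in library 6. The genes listed here were picked, and these patterns noticed, after the values were seen, so the patterns carry no test.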
